A study of Zea mays with 112 samples.

Results

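Among the maize transcription factors (TFs) whose lists of binding sites were analysed here, 6 were the only members of their families, namely ABI33 of the B3 family, C3H11 of the C3H zinc fingers, CPP10 of the CPP family, GLK44 of the G2-like family, TCPTF40 of the TCP family and THX47 of the trihelix family. They were chosen by name, with the families as the study assigns them, and not by any measured value. Earlier results of these data were known when the choice was made. Each of the 6 lists stood beside 111 others, and together they held 350585 of the 9750022 peaks of the series. The study profiled TFs for a gene regulatory network of the differentiating maize endosperm. Binding was measured by ampDAP-seq, an assay in a test tube in which a TF carrying a HaloTag is made in wheat germ extract, fixed to beads and mixed with fragments of genomic DNA, here PCR-amplified DNA from leaves of the inbred B73 (age 14 DAG), which carries neither chromatin nor DNA methylation. There was 1 list per TF and no replicate of any of them, so a difference between single lists has no replicate check, and the intervals given below (95%, Wilson) cover counting error only. Read depth was not given in the lists, and the number of peaks a list holds depends on it.

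The B3 domain is a plant-specific DNA-binding domain found in seed maturation regulators such as ABI3 and VP1 and in the auxin response factors. CCCH zinc finger proteins bind RNA in many cases and DNA in some, and CPP proteins bind DNA through cysteine-rich CXC domains and are related to LIN54, a subunit of a cell cycle regulating complex of animals. G2-like (GARP) proteins are named for GOLDEN2 of maize, a regulator of chloroplast development, TCP proteins for TEOSINTE BRANCHED, CYCLOIDEA and PCF, which control growth and branching, and trihelix proteins were first found as factors that bind GT elements of light-regulated promoters.

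The motifs listed for the 6 TFs in a supplementary table of the study are shown because they say what letters each protein was reported to prefer. They were not derived anew here, since no genome of the build of the lists was used. For ABI33, C3H11, TCPTF40 and THX47 the table also holds letters that stand for more than 1 base, and the longest run of plain bases is given. Capitals mark the longest stretch shared by any pair of the 6 (CPP10 and GLK44) and the palindrome of TCPTF40.
ABI33: gcaacataa
C3H11: tttttgtcgttt
CPP10: aaATTCAAAt
GLK44: aagATTCAAA
TCPTF40: gtGGGCCCc
THX47: aaaaccg
The motif letters of CPP10 and GLK44 had 7 bases in common. The next longest run shared by a pair, on either strand, was 4 bases. TCPTF40 shared at most 2 bases with any of the other lists.

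The lists differed widely in length. THX47 held 5387 peaks, the fewest of all lists, ABI33 held 18622, TCPTF40 21317 and C3H11 37343. GLK44 held 117859 and CPP10 150057, ranks 35 and 20 from the longest. The longest list of all, that of BZIP78, held 285897. The median length was 29330 peaks for the 6 and 76160 for the others, a difference that did not pass the test over lists (two-sided exact permutation test of the rank sum, p = 0.214, 0.427 after Benjamini-Hochberg adjustment over the 6 measures compared in this way). Each peak is an interval of 201 bp around a summit, and the peaks of THX47 covered 1.00 Mb of the genome while those of CPP10 covered 27.3 Mb.

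Strength split the 6 lists in a different way from length. The deposited signal of a peak is not stated to be scaled between libraries, so the median signal of a list was set against its own weakest peak, as a ratio. This ratio was 4.02 for THX47, the highest of all lists, 3.60 for CPP10 and 2.71 for GLK44. It was 1.93 for C3H11, 1.92 for TCPTF40 and 1.83 for ABI33, where C3H11 and TCPTF40 ranked 96 and 97 from the highest and ABI33 lower still. The shortest list and the longest of the 6 therefore stood next to each other on this measure. The lowest ratio of all lists was 1.55, for 1d012968. The peaks with a −log10 q of at least 10 showed the same grouping. They made up 58.5% of CPP10, 55.4% of THX47 and 51% of GLK44, beside 35.3% of the peaks of all lists. In ABI33, TCPTF40 and C3H11 they made up 5.80%, 5.10% and 3.16%. C3H11 and TCPTF40 lay below each of the 10 other lists nearest to them in length, ABI33 lay above 1 of its 10, and THX47 lay above each of its 10, whose shares ran from 0.609% to 47.6%. For the 6 as a group the difference in the ratio from the other lists did not pass the test (median 2.32 against 2.24, exact permutation p = 0.946, adjusted p = 0.946).

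A peak was called private when no other list had a summit within 100 bp of its summit. In 5 of the 6 lists the private share was larger than the 17.3% over the peaks of all lists. TCPTF40 stood highest of all lists, with 60.8% private (60.1 to 61.4; 12953 peaks). It was followed by GLK44 with 53.6% (53.3 to 53.9), THX47 with 44.01% (42.7 to 45.3) and CPP10 with 36.6% (36.4 to 36.9), ranks 6, 9 and 12. C3H11 had 26.1% (25.6 to 26.5), rank 22, and ABI33 had 10.2% (9.76 to 10.6), rank 55. ABI33 was thus the one list of the 6 below the share over all peaks. The lowest share of all lists was 1.25%, for WRKY67. The median share was 40.3% for the 6 and 8.96% for the others, and each of the 6 lay above the latter (exact permutation p = 0.00117, adjusted p = 0.00351). The private share counts what the other TFs cover, and none of these 6 had a family member among the lists analysed here. A pair of comparisons that take this into account in part, since relatives under other names remain, did not pass the test. Against the 13 other lists whose name stem (the letters that open the name) occurs once, the medians were 40.3% and 20.3% (exact permutation p = 0.0577, adjusted p = 0.173). When lists of the same stem were left out of the count for every list, the medians were 40.3% and 29.9% (exact permutation p = 0.385, adjusted p = 0.578). This setting was chosen after the data were seen. TCPTF40 and GLK44 then ranked 3 and 19, THX47 39, CPP10 48, C3H11 68 and ABI33 93.

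With relatives counted, TCPTF40 and THX47 stood far above the lists of like length. The 10 other lists nearest to TCPTF40 in length had private shares of 1.59% to 10.7% (median 4.19%), and all 10 lay below it. The 10 nearest to THX47, all longer than it, ran from 1.56% to 8.36% (median 4.25%). For GLK44 and CPP10, 9 of the 10 nearest lists lay below, with medians of 12.1% and 17.3%. C3H11 also lay above 9 of 10 and ABI33 above 8 of 10. The lists of like length can be covered by relatives, which the 6 lack. With lists of the same stem left out, all lists nearest to TCPTF40 still lay below it, up to 30.6% in NACTF6. MYB121 (67.5%) and HSFTF17 (58.7%) then lay above THX47, and the others nearest to it below. Of the 10 lists nearest to CPP10, all but DBF1 (25.3%) and NRP1 (19.7%) lay above it. WRKY32 (54.3%), BZIP8 (55.1%) and AY110782 (60.3%) lay above GLK44, and the rest of its 10 below.

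**Figure D1:**
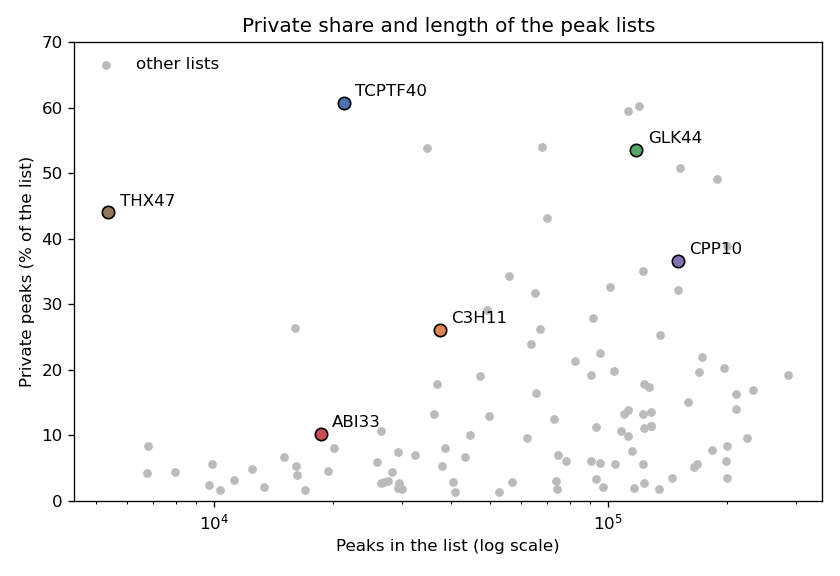
Private peaks of each list in percent (y axis) against the number of peaks in the list on a log scale (x axis), 1 point per list, with the 6 lists coloured and labelled and the others in grey. TCPTF40 (60.8%) and THX47 (44.01%) lie far above the grey points of like length, while ABI33 (10.2%) lies near them. Relatives of the grey lists are counted, and the 6 lists have none.

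The number of other lists at a peak gave a second view of the same contrast. ABI33 had a median of 7 other lists at a peak, and 36.5% of its peaks had at least 10, beside 11.9% of the peaks of all lists. The share with at least 10 other lists was 7.08% for C3H11, 2.73% for CPP10, 1.58% for THX47, 1.32% for GLK44 and 0.652% for TCPTF40. The share of TCPTF40 was the lowest of all lists. No peak of TCPTF40 had more than 20 other lists, whereas the most crowded peaks of ABI33 and of CPP10 had 50 and 54. In ABI33 the sites with 20 or more other lists numbered 1713, almost as many as its 1897 private sites.

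**Figure D2:**
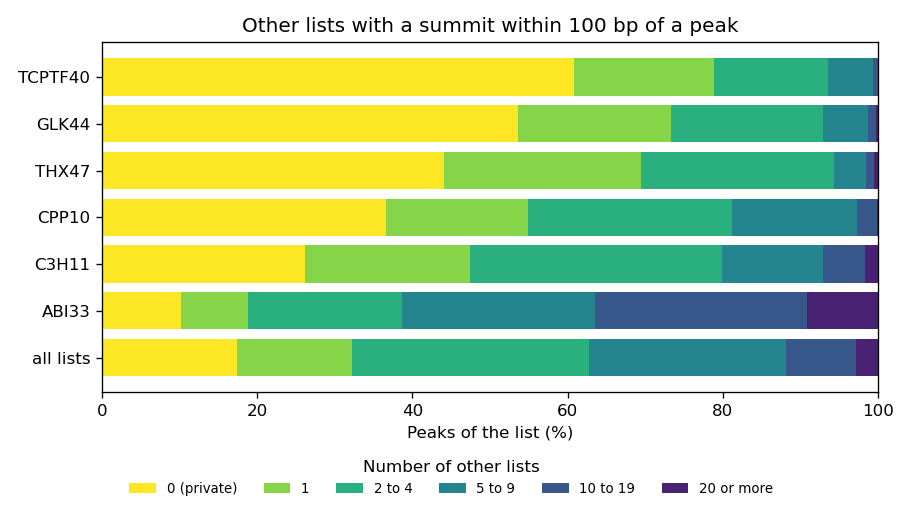
Share of peaks (x axis, percent) with 0, 1, 2 to 4, 5 to 9, 10 to 19 or 20 or more other lists within 100 bp, for each of the 6 lists and for the peaks of all lists together. The private part shrinks from 60.8% in TCPTF40 to 10.2% in ABI33, and the parts with 10 or more other lists are wide in ABI33 alone among the 6.

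How the private share moved with signal differed between the 6. In C3H11 it fell from 34.8% in the lowest decile of signal to 12.3% in the highest. In CPP10 it fell from 43.3% to 22.4%, and among the 100 strongest peaks of CPP10 4.00% were private (1.57 to 9.84). TCPTF40 showed no such fall, with 57.4% in the lowest and 59.2% in the highest decile, and 55% (45.2 to 64.4) among its 100 strongest. GLK44 stayed between 53.4% and 56.2% over its 9 lower deciles and had 46.7% in the highest. Among the 100 strongest peaks of GLK44 the share was 14.0% (8.53 to 22.1). THX47 ranged from 37.1% to 49.4%, with 40% (30.9 to 49.8) among its 100 strongest. In ABI33 the share stayed between 7.68% and 14.7%, and the share of peaks with 10 or more other lists was 16.6% in decile 1, 56.6% in decile 9 and 47.7% in decile 10. It was 37.1% among the 1000 strongest ABI33 peaks and 9% among the 100 strongest. The interval of the 100 strongest peaks took in the share over the whole list in TCPTF40, THX47 and ABI33 (8%, 4.11 to 15), and lay below it in CPP10, GLK44 and C3H11 (10%, 5.52 to 17.4).

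Taking only the 5000 strongest peaks of each of the 6 against all peaks of the others, TCPTF40 (60.04%), THX47 (43.5%) and GLK44 (40.02%) ranked 1, 2 and 5. CPP10 had 17.8%, C3H11 13.6% and ABI33 9.42%. The median of the other lists was 0.400% in this count, and the value of ABI33 ranked 18. Relatives of the other lists are counted here, and the 6 have none. No count without lists of the same stem was made for these peaks. Over all peaks that setting put ABI33 at rank 93.

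Sharing between 2 lists was taken as the percentage of the 5000 strongest peaks of one with a summit of the other's 5000 within 100 bp, averaged over both directions. The highest sharing of a list with any other was 1.89% for CPP10, the lowest of all lists, 2.01% for TCPTF40, 4.67% for GLK44, 5.20% for THX47 and 6.76% for C3H11. These were the 5 lowest values of all. ABI33 reached 23.5%, rank 96. The highest value of all belonged to WRKY14, at 80.8%. The medians were 4.94% for the 6 and 47.2% for the other lists (exact permutation p = 1.31e-07, adjusted p = 7.85e-07). A mutual closest pair gives 1 value to both lists, as WRKY14 and WRKY102 do at 80.8%. The lists are thus not independent, and the p-values of this measure may be too small. Since the 6 lists had no relative to pair with, the comparison was repeated with lists of the same stem left out for all, a setting chosen after the data were seen. The medians were then 4.94% and 27.6% (exact permutation p = 0.00162, adjusted p = 0.00485). Against the 13 other lists with a stem of their own the medians were 4.94% and 38.7% (exact permutation p = 0.000111, adjusted p = 0.000663). Some of those 13 had a close partner under another name, as DOF36 and PBF1 had in each other at 39.7%. Leaving out the same stem also keeps such partners, as HB91 kept OCL1 (55.7%) and BZIP75 kept GBF1 (57.4%). These comparisons therefore do not show how the 6 would stand beside lists without any relative.

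**Figure D3:**
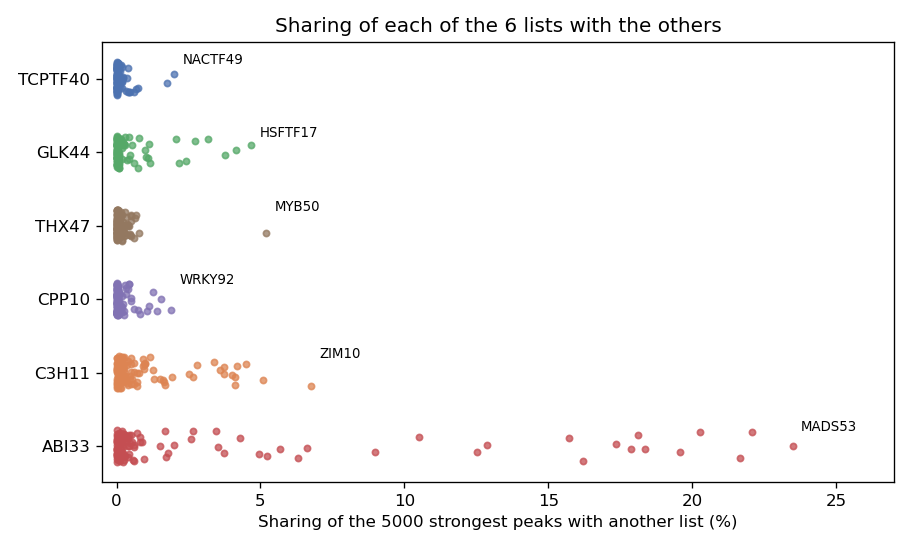
Sharing of the 5000 strongest peaks (x axis, percent) of each of the 6 lists with each of the 111 others, 1 point per other list with vertical scatter for legibility, and the closest list named. Points of ABI33 reach 23.5%, those of the other 5 lists stay at or below 6.76%, and in THX47 a single point, MYB50 at 5.20%, stands apart.

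ABI33 was close to many lists rather than to one. Its 3 closest were MADS53 (23.5%), HB96 (22.1%) and GATA24 (21.6%), from families other than its own, and 14 lists shared more than 10% with it. Those 3 also shared 36.98%, 38.5% and 32.2% of their strongest peaks with each other, more than any of them shared with ABI33. Each of the 14 lists had a smaller share of peaks with a −log10 q of at least 10 than the median list outside the 6 (28.5%). That median is itself below the 35.3% over the peaks of all lists, so a share under 35.3% is common. The shares of the 14 lists ran from 0.609% in ZIM10 to 24.02% in MADS53, and ABI33 had 5.80%. Small shares did not always go with high sharing, since 1d012968 (4.76%) and TCPTF40 (5.10%) shared 0.440% and 0.0200% with ABI33. Whether the overlap reflects weak peaks was not tested. Over all peaks, 35.9% of ABI33 had a MADS53 summit within 100 bp (6691 peaks). The strongest peak of ABI33 lay on chromosome 4 with its summit at 24500325 (signal 340.7) and had 2 other lists. Its strongest private peak, on chromosome 5 at 125639247 (signal 208.2), was the fifth strongest of the list. This summit lay within 100 bp of the second strongest ABI33 peak, at 125639329 (signal 260.9), which was not private. Their 201-bp intervals overlap, so the private peak is not a separate site of ABI33.

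THX47 shared 5.20% of its 5000 strongest peaks with MYB50 and under 1% with every other list, the next being 1d012968 (0.780%) and EREB97 (0.670%). Among the 1000 strongest peaks the order was another, with 1.90% for 1d012968, 1.70% for 1d042933 and 0.800% for MYB50. Over all peaks, 2047 of the 5387 THX47 peaks, 38%, had a summit of MYB50 within 100 bp, at a median distance of 28.0 bp. MYB73 was next at 16.9%, and 84.2% of those peaks also had MYB50. Of the 1369 THX47 peaks with exactly 1 other list, that list was MYB50 in 57.7% and CPP10 in 14.3%. Private peaks and peaks with MYB50 or MYB73 together made up all but 15.3% of the THX47 list. The 2264 MYB50 peaks with a THX47 summit made up 1.20% of the 188556 in that list, a share that the short THX47 list keeps low. THX47 peaks with MYB50 had a median signal of 55.1, and the others 40.

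THX47 also held the highest signal of the 6 lists, 5987, at 50915 on the contig ctg243 outside the 10 chromosomes, where 6 other lists had a summit. Its next strongest peak had 1902, on chromosome 1 at 248633603. Its strongest private peak lay on chromosome 2 at 176337018 (signal 345, rank 13 in the list).

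GLK44 was nearest to HSFTF17 (4.67%), HSFTF16 (4.14%) and MYBR111 (3.77%). Heat shock factors, which the HSFTF stem names, are a distinct family from G2-like. The order was another when all peaks were counted. MYBR13 was then first with 9.64% of the GLK44 peaks, followed by GATA25 (7.72%), MYBR111 (6.87%), MYBR81 (6.79%) and MRP1 (5.90%). HSFTF17, itself a list of 6786 peaks, reached 0.620%. MYBR111 was also the commonest partner at the 23323 GLK44 peaks with exactly 1 other list, at 12.9%. The strongest GLK44 peak lay on chromosome 7 at 48058961 (signal 1837.8, 2 other lists). Its strongest private peak, on chromosome 6 at 17480803 (signal 1339.8), was the twelfth strongest, and had a −log10 q at the upper limit of the column. No other list of the 6 had a private peak of this signal, the next being 635.6 in CPP10, though signals are not on a common scale.

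CPP10 had no close partner among the 5000 strongest peaks of other lists, although most of its own strongest peaks lay near peaks of some other list, as the private shares above show. WRKY92 (1.89%), PBF1 (1.55%) and WRKY72 (1.39%) were its 3 closest among the strongest peaks. Over all peaks, 23.1% of CPP10 had a WRKY92 summit and 19.1% a WRKY72 summit, and the 5 lists with the highest such share all carried the WRKY stem. WRKY proteins bind W-box elements and are a family of their own. The CPP10 peaks near WRKY92 had a median signal of 98.7, against 45.2 for the others. The strongest CPP10 peak lay on chromosome 1 at 285338182 (signal 1427.7, 19 other lists), and its strongest private peak on chromosome 8 at 25665146 (635.6) was only the 43rd strongest.

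TCPTF40 shared 2.01% with NACTF49, 1.74% with WRKY48 and 0.730% with EREB18, and no more than 0.660% with any other list. Even with NACTF49 the summits seldom coincided. Of the 255 TCPTF40 peaks within 100 bp of a NACTF49 summit, 2.35% lay within 20 bp, against 38.01% of the THX47 peaks near MYB50, and the median distance was 78.0 bp. Over all peaks no list reached more than the 6.99% of GBF1. The strongest peak of TCPTF40 was on chromosome 5 at 150790233 (signal 253.8, 1 other list), and its second strongest, on chromosome 3 at 231166640 (240.9), was private.

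C3H11 was nearest to ZIM10 (6.76%), NACTF67 (5.07%) and MYBR33 (4.49%). ZIM10 and NACTF67 had the smallest shares of peaks with a −log10 q of at least 10 of all lists. These were 0.609% and 1.42%, and C3H11 came next with 3.16%. ZIM10 held 6733 peaks, so its 5000 strongest were most of its list. Over all peaks it was BZIP60 that came first, with 16.05% of the C3H11 peaks, then OCL5A with 13.9%. At the 7966 C3H11 peaks with exactly 1 other list, SMH1 was the commonest partner with 14.5%. The strongest C3H11 peak, on chromosome 1 at 8400149 (signal 258.0), had 17 other lists, and the strongest private one, on chromosome 4 at 47258076, had a signal of 130. That private peak had a −log10 q of 6.8, while a C3H11 peak with a signal of 135.0 had 30.97.

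The 6 lists had little in common with each other. Their highest sharing was 3.75%, between ABI33 and C3H11, and the other 14 pairs lay between 0.00% and 0.610%. Low sharing was not particular to these pairs. The median sharing of each of the 6 with the 111 other lists lay between 0.00% and 0.270%. CPP10 and GLK44, whose listed motifs had 7 letters in common, shared 0.0800% of their strongest peaks, and 1.98% of all CPP10 peaks had a GLK44 summit within 100 bp. A CPP10 summit lay near 8.07% of the THX47 peaks (435), and a THX47 summit near 0.296% of the CPP10 peaks (444), shares that differ because of the lengths of these lists. When the summits of the 6 were chained within 100 bp, 97.5% of the 323400 resulting loci held a single one of the 6 TFs, 7517 held 2, 400 held 3 and 14 held 4. The same count was not made for other groups of lists.

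The 6 lists came from libraries whose run identifiers share the year digits 20, ABI33 with other leading digits than the rest. Sharing was low with lists of the same leading digits and with others. For TCPTF40 the median was 0.00% over the 27 lists of the same digits and 0.0200% over the 84 others, and for CPP10 it was 0.0600% and 0.00%. ABI33 had medians of 0.170% over 32 lists and 0.290% over 79. When only the lists of year 20 were used, the medians of the closest sharing were 3.34% for the 6 and 43.8% for the 69 others (exact permutation p = 1.73e-05, adjusted p = 0.000104), and those of the private share were 53.8% and 13.7% (exact permutation p = 0.00128, adjusted p = 0.00384).

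Summits of a TF can lie near each other when a region holds several sites. Self-clustering was taken as the share of the 5000 strongest summits of a list with another of them within 1000 bp, which held for 18.9% over all lists. THX47 stood out with 43.2% (41.8 to 44.6), rank 3 of all lists, where EREB79 was highest at 63.1% and MYB83 lowest at 2.44%. CPP10 had 17.8%, ABI33 16.4% and GLK44 11.6%, and C3H11 and TCPTF40 both had 5.78%, rank 105. For the 6 as a group the difference from the others did not pass the test (medians 14.0% and 17.4%, exact permutation p = 0.364, adjusted p = 0.546). For THX47 the 5000 strongest are nearly the whole list, and its share over all peaks was 43.4%. All 10 of the lists nearest to it in length had lower shares over all peaks, between 4.88% and 42.5%.

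Over all peaks the order changed, and CPP10 came first with 54.9%, rank 6, above each of the 10 lists nearest to it in length (22.0% to 53.2%). GLK44 had 41.9%, ABI33 24.5%, C3H11 13.2% and TCPTF40 11.1%. C3H11 and TCPTF40 lay below all 10 of their neighbours in length. In CPP10, 45.4% of all summits but only 3.34% of the strongest 5000 had another of the same set within 200 bp. The 5000 strongest are a small part of its 150057 peaks, and the cause of the rise was not tested. Clustered summits were also the stronger ones in CPP10, with a median signal of 70.5 against 40 for lone summits, in GLK44 with 60.5 against 40 and in THX47 with 52.4 against 39. In C3H11 (27.7 and 27) and TCPTF40 (30.1 and 29) both kinds were nearly alike. Clustered summits of THX47 were private in 37.6% and lone ones in 48.9%, while in TCPTF40 the values were 60.96% and 60.7%.

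**Figure D4:**
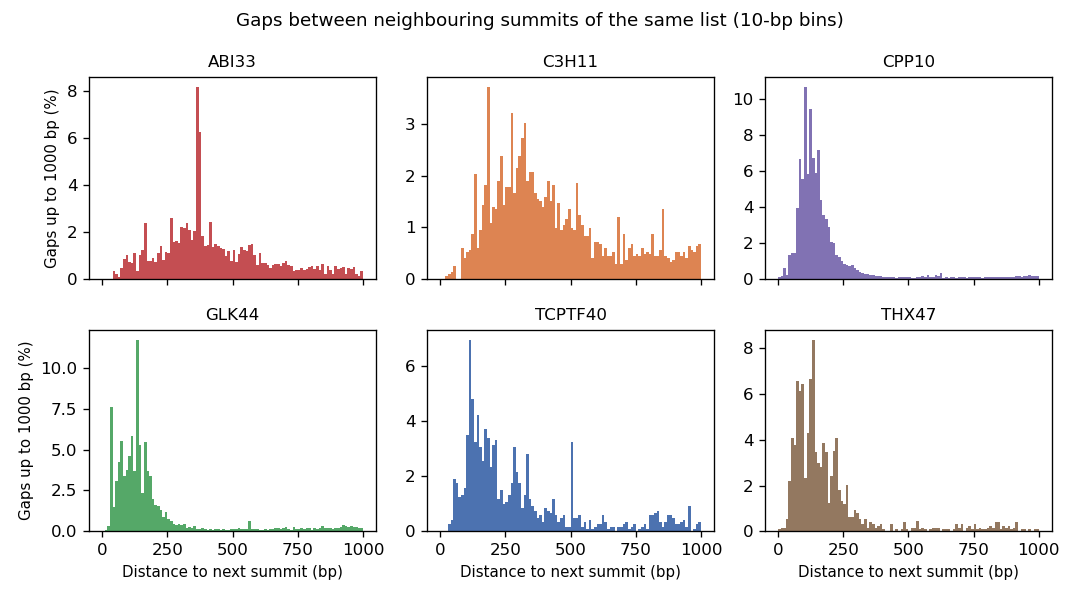
Distances between neighbouring summits of the same list up to 1000 bp in bins of 10 bp (x axis), as percent of such gaps (y axis), 1 panel per list with its own y scale. GLK44 has tall bins at 130 and 30 bp, ABI33 at 360 and 370 bp, CPP10 a broad hump near 100 to 160 bp, and C3H11 a wide spread.

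The distances themselves differed in kind. In GLK44 the exact distance of 131 bp occurred 2244 times and that of 39 bp 1869 times, while distances 2 or 3 bp longer or shorter than 131 bp occurred 87.8 times on average. These distances made up 8.45% and 7.04% of the gaps up to 1000 bp. The pairs were on all 10 chromosomes, those at 131 bp from 144 on chromosome 10 to 381 on chromosome 1. Peaks in pairs at 131 bp were private in 88.3% of cases, against 53.6% over the list, and those at 39 bp in 62.2%. The weaker summit of a 131-bp pair had a median of 0.291 of the signal of the stronger one. NACTF61 was the other list with the most gaps of exactly 131 bp, 1235 or 6.71% of its gaps, yet the median GLK44 peak of these pairs had 0 other lists within 100 bp. These distances were singled out after the values were seen, and whether the pairs lie in repeated sequence was not tested.

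ABI33 had its commonest distances at 369 bp (116 pairs) and 370 bp (110 pairs), with 7.75 pairs on average at 2 or 3 bp from 369. These were sites of many lists, since none of the 232 peaks in the 369-bp pairs was private and their median was 14 other lists. In this the recurrent distances of ABI33 and GLK44 were unlike. CPP10 had a broad maximum, with 1120 pairs at 107 bp and 379 pairs on average at the distances 2 or 3 bp off. TCPTF40 and THX47 had no distance with more than 25 pairs, and C3H11 had 39 pairs at 181 bp.

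The largest runs of summits chained within 1000 bp were small. CPP10 had 8 summits at chr5:132164420-132167520, of which 3 were private and the strongest had a signal of 298.9. THX47, with the fewest peaks, had 7 summits at chr10:127709931-127711242, 6 of them private, with signals from 20.9 to 149. TCPTF40 had 5 summits at chr7:5867810-5869068 and GLK44 had 6, the first of 9 such runs being at chr1:2102558-2104031. The longest runs of ABI33 and C3H11 held 4 summits and numbered 24 and 13, the first of each by position being at chr1:4677718-4678841 for ABI33, where each summit had at least 12 other lists and as many as 40, and chr2:152386419-152387982 for C3H11. Coordinates are those of the B73 v4 build.

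Along the chromosomes the 6 lists were spread broadly. The outer 10% at either end of chromosomes 1 to 10 held 20.2% of the peaks of all lists. It held 22.4% (21.3 to 23.6) of THX47, 20.7% of GLK44, 20.5% of ABI33, 18.9% of TCPTF40, 18.9% of CPP10 and 16.3% (15.9 to 16.7) of C3H11. C3H11 ranked 107 of all lists, that is among those with the fewest peaks near chromosome ends, and THX47 ranked 18. The highest share of all lists was 25.2%, for MYB83, and the lowest 11.9%, for SMH1, the list that was also the commonest single partner of C3H11. The difference of the 6 from the others did not pass the test (medians 19.7% and 20.04%, exact permutation p = 0.729, adjusted p = 0.875).

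**Figure D5:**
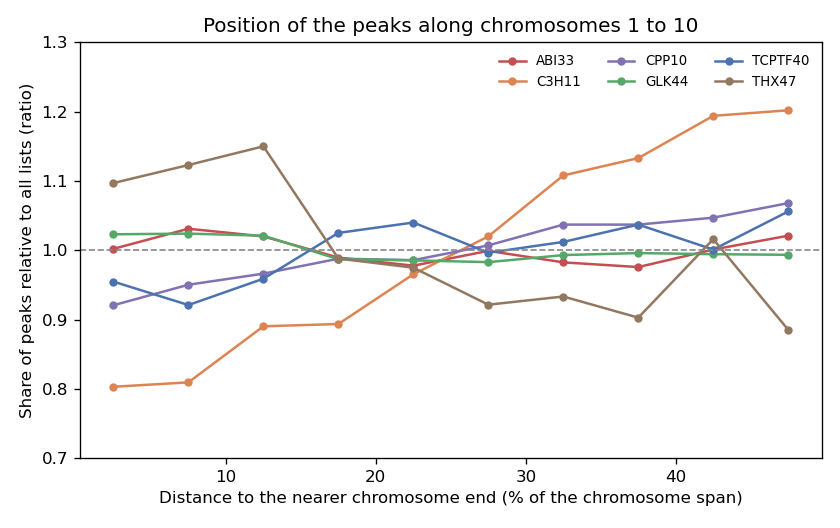
Share of peaks in bins of 5% of the chromosome span, from the nearer end (left) to the middle (right), divided by the same share over all lists (y axis, ratio, axis from 0.7 to 1.3). C3H11 rises from 0.803 at the ends to 1.20 in the middle, THX47 goes the other way from 1.10 to 0.885, and the other 4 lists stay between 0.921 and 1.07.

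The profile of C3H11 rose almost steadily toward the middle of the chromosomes, with 8.22% of its peaks in the outermost bin and 11.8% in the innermost. CPP10 showed a smaller rise of the same kind, from 0.921 to 1.07 of the share over all lists. The private share differed little along the chromosome. It was 57.7% in the outer 10% and 61.5% elsewhere in TCPTF40, 33.3% and 37.4% in CPP10, and 45.9% and 43.4% in THX47. Peaks per Mb differed between chromosomes by a factor of 1.07 in CPP10 (68.3 to 72.8 per Mb) up to 1.20 in THX47, which had 2.83 per Mb on chromosome 10 and 2.36 on chromosome 6. Between 0.780% and 1.19% of the peaks of a list lay outside the 10 chromosomes.

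In bins of 1 Mb the fullest bins held from 1.7 to 7.5 times the mean of their list. GLK44 and ABI33 had theirs in the same bin, chr7:13000001-14000000, with 96 peaks against a mean of 55.3 for GLK44 and 29 against 8.73 for ABI33. CPP10 had 121 peaks at chr3:55000001-56000000 (mean 70.4), and TCPTF40 had 30 at chr6:27000001-28000000 (mean 9.98). The fullest bin of C3H11, the first of 2 equal ones, was chr1:161000001-162000000 with 42 peaks (mean 17.5), and that of THX47, also the first of 2, was chr2:141000001-142000000 with 19 (mean 2.53). Of the 2111 bins, 457 held no THX47 peak and none was without a CPP10 peak.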

How the data were processed

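The authors trimmed reads with Trimmomatic (0.39), aligned them to B73 v4 with Bowtie2 (2.4.1), and called peaks with GEM against a library of the empty HaloTag vector, as the labels and the study's methods state. The deposited lists give 201-bp peaks with a signal, whose scaling between libraries is not stated, and the authors' −log10 p-value and q-value, which are capped. Read depth is not in the lists, which limits how peak numbers can be compared. Groups came from the sample titles. Summits, distances, shares and ranks were computed with Python 3.11 (numpy, pandas, scipy), after the functions had been tested on simulated data. Lists were the units of the exact permutation test of the rank sum (two-sided, Benjamini-Hochberg over 6 measures), and each measure was recomputed under other windows, thresholds and list sets. The test treats lists as independent, which lists of 1 family are not, so its p-values may be too small. Named were the 3 closest lists of each member, the highest and lowest list per measure, and for each member the strongest peak, the strongest private peak, the largest run of summits and the fullest 1-Mb bin. Others were chosen after the values were seen. The 6 lists and all measures were chosen with earlier results of these data known. No gene annotation was used here.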

Additional observations from a re-analysis of the deposited data

Results flagged for a closer look

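Each of the 6 measures was searched among the 6 lists for a value whose gap to its nearest neighbour was a large part of the whole range, past Dixon's limit, which chance passes in about 1 of 20 groups. A pair of lists passed it. ABI33 shared 23.48% of its strongest peaks with its closest list, a gap of 0.774 of the range from the next list, C3H11. THX47 had 43.18% of its strongest summits within 1000 bp of another, a gap of 0.678 of the range from CPP10. For THX47 the 5000 strongest are nearly the whole list, and for CPP10 a small part. Over all peaks CPP10 had 54.9%, THX47 43.4% and GLK44 41.9%, so THX47 was not the highest of the 6.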

How the results depend on the processing

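Values here are the median of the 6 lists minus that of the others, in percentage points unless stated. The private share (31.4) kept its direction and its call under 6 other settings and without each of the 6 lists in turn (27.7 to 35.1), but not against the 13 other lists of a single stem (20.02, adjusted p = 0.173) or with lists of the same stem left out (10.4, adjusted p = 0.578, exact permutation tests). Closest sharing (−42.3) kept both throughout, with −42.6 to −42.05 when a list was left out. Relatives under other names stayed in under all of these settings. The other 4 measures passed no test, and some turned their sign. The signal ratio (0.08) became −0.22 for the 90th percentile over the median and ran from −0.32 to 0.47 without single lists, the lower value without CPP10, GLK44 or THX47. Self-clustering (−3.41) was 1.51 over all peaks and −5.77 to −1.05 without single lists. The outer share (−0.31) was 0.64 for the 5000 strongest peaks and −1.10 to 0.48 without single lists. Peak number ran from −54840 to −38820 peaks without single lists. The cause of these changes was not tested. TCPTF40 had the largest private share of the 6 in each window and threshold but that of 500 bp, where GLK44 had 20.2% and TCPTF40 12.7%, and ABI33 had the smallest in all. The closest list of ABI33 became 1d042933, that of CPP10 became C3H11 and that of THX47 became 1d012968 (1.90%) when the 1000 strongest peaks were used, where MYB50 shared 0.800% with THX47. That of GLK44 became NACTF134 (4.43%) for the strongest 5% of each list, and those of TCPTF40 and ABI33 became EREB18 (0.320%) and 1d042933 (8.76%) within 20 bp. No paired analysis was possible because each TF has 1 list and the lists share no replicate.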
